A study of Mus musculus with 32 samples.

Results

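RNA-seq of multipotent progenitors (MPP) from mice that carried Jak2V617F together with a deletion of Jarid2 was compared with RNA-seq of MPP from mice that carried Jak2V617F alone. The comparison held 4 libraries, 2 per genotype, chosen by their titles out of 24 RNA-seq libraries and 32 samples in the series. Per the labels, all 4 came from C57BL/6 mice aged 10 weeks and 2 months after pIpC, an inducer of interferon that switches on the Mx1-Cre recombinase, and the protocol speaks of pooled male and female mice aged 8 weeks. Mx1-Cre is active in blood cells and in other interferon-responsive tissues, so deletion was not limited to MPP. The genotype labels were Mx1-Jak2V617F and Mx1-Jak2V617F - Jarid2KO (here the double mutant), and Jak2V617F, Mx1-Cre and pIpC were therefore common to both groups. MPP were sorted as lineage-negative, cKit+, Sca1+, CD150- and CD48- cells. Also used were 2 control MPP libraries and 4 Jak2V617F and double mutant libraries of haematopoietic stem cells (HSC) from the same Mx1-Cre cohort. In addition, 3 Jarid2-KO and 3 control MPP libraries came from 8-week-old mice in which Vav-Cre, active across blood cells, had deleted Jarid2 without Jak2V617F. Where the series' overall description names Jarid2-KO without Jak2V617F for Mx1-Cre mice, each sample's own label was used instead.

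Jarid2 binds and steers Polycomb repressive complex 2 (PRC2), which methylates histone H3 at lysine 27 and keeps developmental genes silent. Jak2V617F is an activating kinase mutation of human myeloproliferative neoplasms, which signals through STAT5 downstream of cytokine receptors such as those of erythropoietin and granulocyte colony-stimulating factor. MPP are the direct descendants of HSC. They give rise to all blood lineages but normally sustain themselves only briefly, and they lose stem cell transcription factors as they mature.

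The libraries held 7852483 to 11938876 counts. Levels are given in CPM, the counts of a gene scaled to the library's total, which follow a gene across libraries; RPKM, which also divides by gene length, is used where genes are compared with each other. Before any result, 3 features of the libraries bear on how it can be read. First, heart muscle genes took 8.88% of the counts in double mutant library 1, 1.17% in double mutant library 2, and 8.35% and 7.60% in the Jak2V617F libraries. Ttn, the giant spring protein of the sarcomere, stood at 29980 and 3969 CPM in the double mutant and at 25790 to 28200 CPM in Jak2V617F. Mitochondrial transcripts followed the same order, with 6.50% and 1.94% of counts in the double mutant and 5.94% and 5.50% in Jak2V617F. Only double mutant library 1 therefore matched both Jak2V617F libraries, and each difference was also computed between those 3 libraries. Second, granulocyte and monocyte genes took 2.40% and 2.99% of counts in Jak2V617F, 0.404% and 0.714% in the double mutant, 8.44% and 2.02% in control MPP, and 0.530% to 0.691% in the Vav-Cre control MPP. Lastly, RNAs of sort markers were low in several Mx1-Cre libraries. Kit, which encodes the stem cell factor receptor used in the sort, stood at 150 to 184 CPM in Jak2V617F, at 189 and 608 CPM in double mutant libraries 1 and 2, and at 1227 to 1922 CPM in Vav-Cre control MPP. Ly6a, which encodes Sca1, stood at 44.3 to 44.7, 122 to 190 and 85.3 to 150 CPM in the same order. Cd48, which the gate excludes, stood at 41.6 to 60.7, 38.8 to 55.5 and 26.5 to 49.1 CPM. The cohorts were tabulated on different exon lists, so levels from both are only set side by side. The sorted identity of both groups is taken from the label, and Kit in the Jak2V617F libraries and in double mutant library 1 was far below its level in the Vav-Cre control. In bulk RNA, fewer cells of a type and less RNA per cell cannot be told apart.

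**Figure D1:**
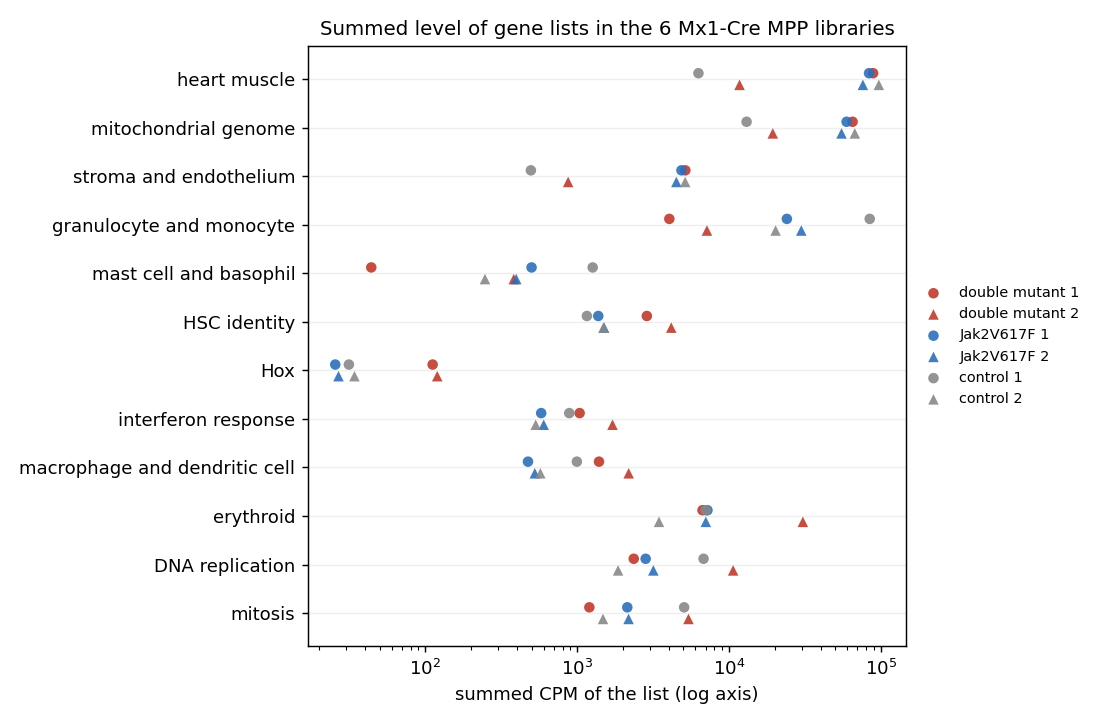
Summed CPM of 12 gene lists (horizontal log axis) in the 6 Mx1-Cre MPP libraries, 1 point per library and no error bars. Heart, mitochondrial and stromal lists were low in double mutant library 2 and control library 1, while the granulocyte-monocyte, HSC and Hox lists set both double mutant libraries apart from both Jak2V617F libraries.

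The targeted gene did not separate the groups. Jarid2 (ENSMUSG00000038518, mm10 chr13:44729474-44921643) stood at 52.6 and 93.2 CPM in the double mutant and at 55.9 and 69.1 CPM in Jak2V617F. Its log2 fold change was 0.14 (SE 0.52, n = 2 per group, edgeR adjusted p = 1). The sign turned to -0.24 between the 3 libraries high in heart RNA. The counts sum all exons of the gene, so a deletion of part of it need not lower them and this value does not check the genotype. Jak2 itself (chr19:29251828-29313080) stood at 58.8 and 48.3 CPM against 37.9 and 47.2 CPM, with a log2 fold change of 0.26 (SE 0.48).

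No gene passed the test at an adjusted p of 0.05. The edgeR quasi-likelihood fit of the 12 Mx1-Cre libraries called 0 of 19616 genes (0.0%), with 588 at an unadjusted p under 0.05, while DESeq2 called 80 and limma-voom 12. The spread between libraries of one group was wide, with a biological coefficient of variation of 0.786 over that fit. A second fit added a term for libraries with more than 4% of counts in heart genes. It called 116 genes (0.591% of those tested), of which 32 were higher (0.163%) and 84 lower (0.428%) in the double mutant. All 32 higher genes lay above both Jak2V617F libraries in both double mutant libraries, and 73 of the 84 lower genes lay below. Of these calls, 17 of the higher and 23 of the lower genes also passed in DESeq2. As the calls came from the same libraries, neither this overlap nor the separation is separate support for them. Because of the wide spread, the 4 libraries are mainly described by the gap, the smallest log2 difference in CPM + 0.5 between any double mutant and any Jak2V617F library. Over all genes tested, 3308 (16.9%) were higher and 3027 (15.4%) lower in both double mutant libraries without overlap. Each list count below has to be read against these shares, and a count near them is no result about the list. A gap of at least 1 upward was found for 467 genes (2.38%) and downward for 601 (3.06%), and the median log2 fold change was -0.04. With 2 CPM added in place of 0.5, which shrinks differences of low genes, these counts were 236 and 217.

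Genes of HSC identity were higher in the double mutant MPP than in Jak2V617F MPP. Of 36 listed genes, all of them tested, 24 were higher without overlap and 1 was lower, 13 had a gap of at least 1 upward and none downward, and the median log2 fold change was 0.93. The median was 0.87 between the 3 libraries high in heart RNA and 1.23 for double mutant library 2 against Jak2V617F. Hlf, a PAR-bZIP transcription factor that marks stem cells, stood at 180 and 353 CPM in the double mutant and at 19.9 and 28.9 CPM in Jak2V617F. Both double mutant libraries thus lay above both Jak2V617F libraries, by a log2 fold change of 3.36 (SE 0.65). The edgeR adjusted p was 0.503 without and 0.000496 with the heart term, and the adjusted p by limma-voom was 0.0244. Procr, the surface receptor EPCR of HSC, was at 24.8 and 69.8 CPM against 3.02 and 3.44 CPM. In Mx1-Cre control MPP Hlf stood at 37.0 and 26.2 CPM and Procr at 2.85 and 2.91 CPM. In Vav-Cre control MPP Hlf stood at 936 to 1163 CPM and Procr at 111 to 139 CPM. Set side by side across different exon lists, both genes were thus lower in the double mutant than in the Vav-Cre control. Pdzk1ip1, a small membrane protein found on stem cells, was at 73.5 and 138 CPM against 4.44 and 9.66 CPM. With the heart term 5 members of the list passed, among them Hlf, Pdzk1ip1, the Hox cofactor Meis1 and the stem cell cytokine Angpt1.

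The difference did not run through the whole stem cell list. Slamf1, which encodes the CD150 that the gate excluded, stood at 8.15 and 6.75 CPM in the double mutant and at 1.09 and 6.22 CPM in Jak2V617F, so the groups nearly touched. The endothelial receptor Tek and the von Willebrand factor gene Vwf overlapped between groups. Tek stood at 56.1 and 55.8 CPM against 62.2 and 43.8 CPM. Vwf stood at 107 and 35.8 CPM against 85.3 and 99.7 CPM, with the lowest value in the library low in heart RNA. Rarb, a retinoic acid receptor, was the 1 list member lower in both double mutant libraries, at 13.6 and 6.37 CPM against 21.2 and 27.4 CPM. Ly6a was higher, at 122 and 190 CPM against 44.7 and 44.3 CPM. In control MPP it stood at 6.71 CPM in the library low in heart RNA and at 63.4 CPM in the one high in it. The part of heart RNA and of granulocyte RNA in the HSC list was not tested.

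Mycn and Runx1t1 were both higher in the double mutant. Both are also members of the HSC list above, so their values are already counted there and are no separate support. Mycn (chr12:12936096-12941914) encodes a MYC family factor active in stem cells, and Runx1t1 (chr4:13743436-13893649) encodes the corepressor ETO. Mycn stood at 25.3 and 56.0 CPM in the double mutant and at 5.03 and 10.96 CPM in Jak2V617F, a log2 fold change of 2.26 (SE 0.82). Runx1t1 stood at 32.3 and 19.7 CPM against 5.11 and 7.80 CPM, a log2 fold change of 1.95 (SE 0.99). Neither passed in edgeR (adjusted p = 1 for both), and with the heart term the adjusted p was 0.634 and 0.0914. Between the 3 libraries high in heart RNA the differences were 1.70 and 2.27. Of the 11 listed genes of the MYC and MAX network, 3 were higher and 2 lower without overlap and the median log2 fold change was 0.04. The others without overlap upward were the partner Max and the repressor Mnt, with gaps of 0.26 and 0.14 against 1.17 for Mycn. Myc itself stood at 128 and 349 CPM against 213 and 224 CPM, with the double mutant libraries on either side of Jak2V617F.

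**Figure D2:**
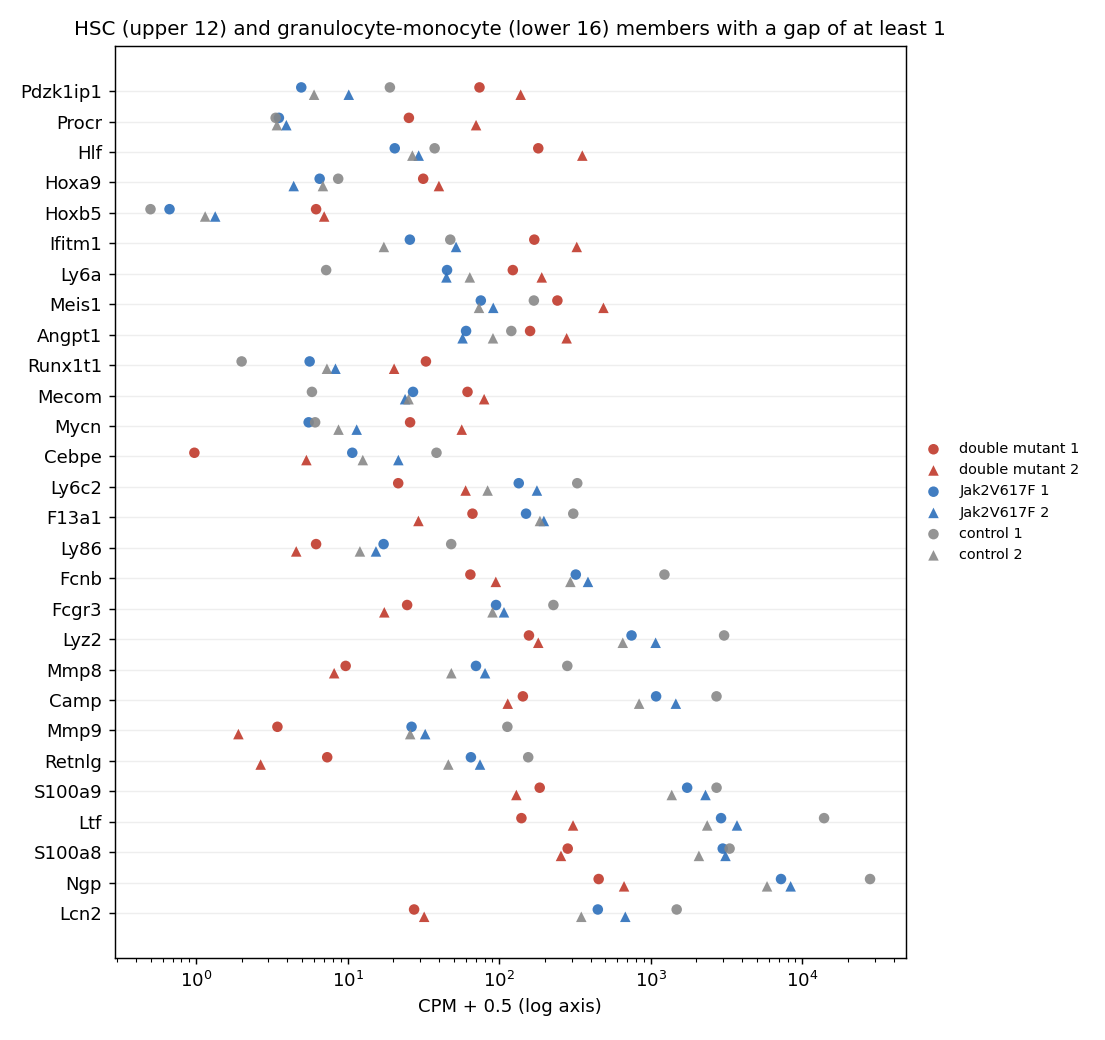
CPM + 0.5 (horizontal log axis) of 12 HSC and 16 granulocyte-monocyte list members with a gap of at least 1, 1 point per Mx1-Cre MPP library. For Hlf both double mutant libraries, at 180 and 353 CPM, lay right of both Jak2V617F libraries at 19.9 and 28.9 CPM, and for S100a8 they lay left of them.

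Of the Hox genes 5 had a gap of at least 1, all upward and all of the A and B clusters. PRC2 is known to hold Hox clusters silent outside the cells that use them, and Hoxa9 and Hoxa10 normally act in HSC and early progenitors. Hoxa9 stood at 31.0 and 39.5 CPM in the double mutant and at 6.03 and 3.90 CPM in Jak2V617F, a log2 fold change of 2.74 (SE 0.81). Hoxa10 was at 19.4 and 23.7 CPM against 1.34 and 3.72 CPM. Hoxb5, used as a marker of long-term HSC, was at 5.69 and 6.49 CPM against 0.168 and 0.836 CPM, and Hoxa5 was at 4.83 and 4.58 CPM against 0.251 and 1.02 CPM. These 4 genes were at similar levels in both double mutant libraries, which differed in heart RNA. Hoxa9 and Hoxb5 are also members of the HSC list and are counted there too. Hoxb9, the fifth, stood at 2.37 and 0.637 CPM and had no count in Jak2V617F. Of the 39 Hox genes 21 passed the filter on low counts, and genes that passed only through the higher group had to differ, so the list count supports nothing. Of the 21, 9 were higher and 1 lower without overlap, and none passed in edgeR with or without the heart term. Their median has the same flaw as the count. It was 1.80 between the 3 libraries high in heart RNA and 0.28 for double mutant library 2 against Jak2V617F. No Hoxc or Hoxd gene had a gap of at least 1.

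PRC2 subunit genes showed small differences. Of the 12 genes 2 were higher without overlap, none was lower and none had a gap of at least 1, and the median log2 fold change was 0.17, or -0.06 with the heart term. Ezh2, the catalytic subunit of dividing cells, stood at 9.24 and 25.1 RPKM in the double mutant and at 11.2 and 10.7 RPKM in Jak2V617F. Ezh1, the catalytic subunit of resting cells, stood at 9.25 and 10.6 RPKM against 8.84 and 7.80 RPKM. Jarid2 was at 5.41 and 9.60 RPKM against 5.75 and 7.11 RPKM, below Ezh2 in each of the 4 libraries. Of 19 PRC1 genes, which bind the PRC2 mark, 3 were higher and 1 was lower without overlap, with a median log2 fold change of 0.24. Both lists lay near or below the shares over all genes tested, 16.9% higher and 15.4% lower.

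Genes of granulocytes and monocytes were lower in the double mutant MPP. Of 26 listed genes 21 were lower without overlap and none was higher, 16 had a gap of at least 1 downward, and the median log2 fold change was -2.14. The median was -2.24 between the 3 libraries high in heart RNA and -2.10 for double mutant library 2. S100a8, a subunit of the calcium-binding alarmin calprotectin, stood at 282 and 255 CPM in the double mutant and at 2980 and 3106 CPM in Jak2V617F. Its log2 fold change was -3.57 (SE 0.76), and its adjusted p was 0.503 in edgeR, 4.86e-07 with the heart term and 0.00336 by limma-voom. Genes of late granules were lower by similar amounts. Lcn2, the iron-scavenging lipocalin, stood at 26.9 and 31.5 CPM against 446 and 678 CPM. Ngp, a granule protein of maturing neutrophils, stood at 452 and 665 CPM against 7223 and 8361 CPM. Ltf, which encodes lactoferrin, stood at 139 and 306 CPM against 2905 and 3701 CPM. Cd177, a neutrophil surface protein, stood at 22.6 and 40.2 CPM against 480 and 543 CPM. Each of these 4 genes separated the groups by more than 3 log2 units.

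Primary granule genes, switched on earlier in granulocyte development, were also read, with no test of their difference from the genes above. Mpo, which encodes myeloperoxidase, stood at 1053 and 2272 CPM in the double mutant and at 3391 and 4447 CPM in Jak2V617F, a log2 fold change of -1.32 (SE 0.95). Elane, which encodes neutrophil elastase, stood at 1003 and 2288 CPM against 1930 and 2677 CPM, and the groups overlapped. Prtn3, which encodes proteinase 3, overlapped too, at 172 and 296 CPM against 205 and 353 CPM. Ctsg, which encodes cathepsin G, stood at 70.4 and 126 CPM against 165 and 209.8 CPM. Ms4a3, a membrane protein of granulocyte precursors, stood at 62.3 and 157 CPM against 191 and 255 CPM. Cebpe, the transcription factor of late granulocyte maturation, stood at 0.474 and 4.84 CPM against 10.2 and 21.1 CPM and passed in edgeR with the heart term (adjusted p = 0.00764). Surface markers of mature myeloid cells, which the lineage antibodies of a sort usually remove, were present and also lower. Itgam, which encodes CD11b, was at 22.3 and 14.4 CPM against 113 and 107 CPM. Ly6g, the neutrophil antigen Gr-1, was at 0.190 and 0.382 CPM against 5.36 and 14.3 CPM. Olfm4, Ccr1, Ifitm6, Alox15, Mmp25, Ceacam10 and Itgb2l were among the 12 widest gaps downward too. Olfm4, a neutrophil granule glycoprotein, was nearly absent from the double mutant at 0.095 and 0.127 CPM against 20.8 and 16.9 CPM. The summed CPM of the list was 4039 and 7145 in the double mutant and 24013 and 29878 in Jak2V617F. In control MPP, without either mutation, it was 84352 and 20239. The control libraries thus lay below and above the Jak2V617F libraries, and both lay above the double mutant. The part of mature cells in the sort was not tested.

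The mast cell and basophil list was split. Of its 10 genes 5 were lower and 3 higher without overlap, against 15.4% and 16.9% over all genes tested. Mcpt8, a basophil protease, stood at 4.17 and 2.16 CPM against 51.5 and 50.1 CPM. Ms4a2, the beta chain of the IgE receptor, stood at 1.42 and 1.78 CPM against 22.2 and 31.8 CPM. Both separated the groups by over 3 log2 units. Prss34, another basophil protease, stood at 1.14 and 27.6 CPM against 274 and 167 CPM. Fcer1a, the alpha chain of the IgE receptor, stood at 0.284 and 3.44 CPM against 6.37 and 11.1 CPM. It was the only list member to pass in edgeR with the heart term (adjusted p = 0.0229). The 3 higher genes are known from mast cells, but no split by cell type is read from so few genes. The tryptase Tpsb2 stood at 9.10 and 124 CPM against 0.921 and 2.32 CPM, with its highest level in double mutant library 2. The mast cell chymase Cma1 stood at 3.03 and 86.5 CPM against 1.51 and 1.49 CPM, and Mcpt4, another chymase, at 3.03 and 1.53 CPM against 0.0838 and 1.39 CPM. In the list of T and NK cells 6 of 11 tested genes were lower without overlap and none was higher, against the same shares. Gzmb and Cd3d, given next, were low in both groups, so their differences rest on few counts. The lytic protease gene Gzmb stood at 0.095 and 1.27 CPM against 3.35 and 5.02 CPM. The T cell receptor chain gene Cd3d was at 0 in both double mutant libraries and at 1.59 and 0.279 CPM in Jak2V617F.

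**Figure D3:**
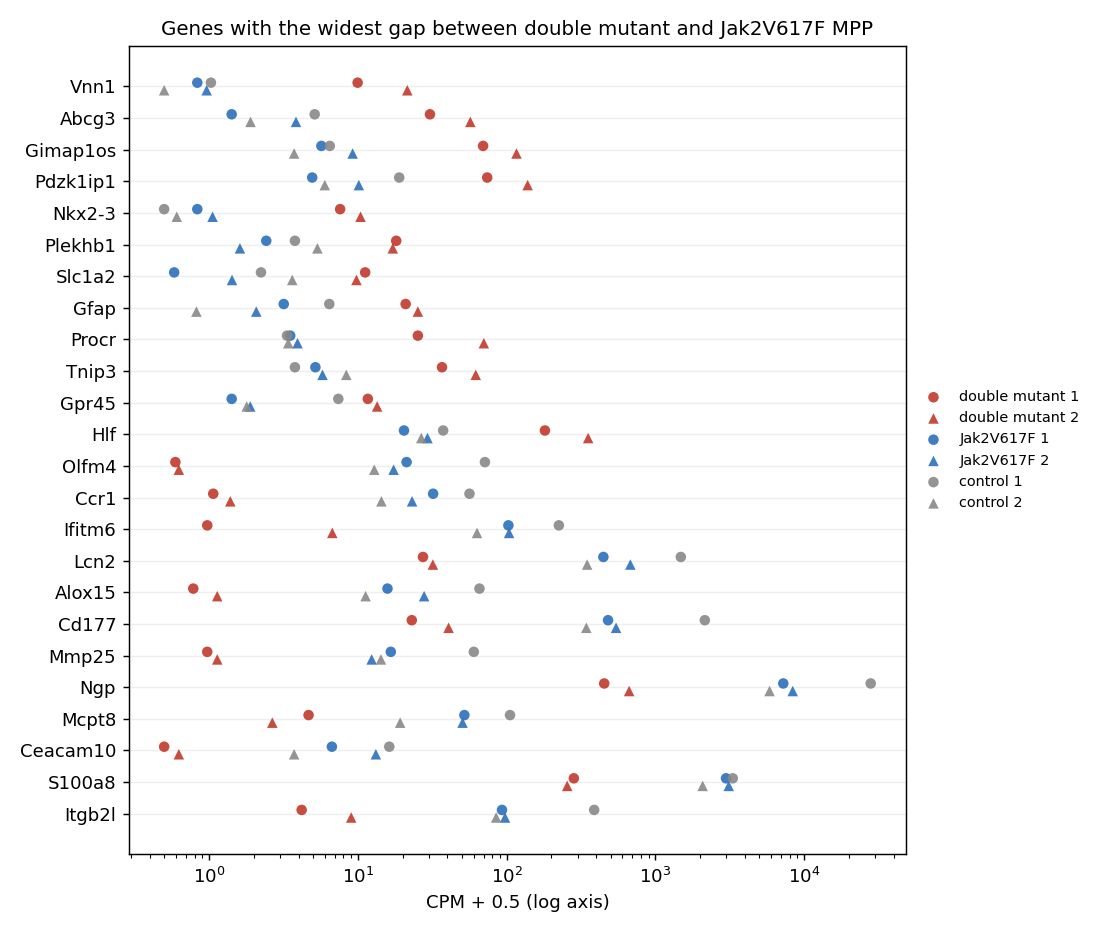
CPM + 0.5 (horizontal log axis) of the 12 genes with the widest gap upward and the 12 with the widest gap downward, 1 point per Mx1-Cre MPP library. Lcn2 stood at 26.9 and 31.5 CPM in the double mutant and at 446 and 678 CPM in Jak2V617F, and control library 1 lay above both Jak2V617F libraries for each of the 12 genes lower in the double mutant.

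The widest gaps upward outside the fixed lists included transporters and enzymes. Vnn1, the pantetheinase vanin 1, stood at 9.48 and 21.0 CPM in the double mutant and at 0.335 and 0.464 CPM in Jak2V617F. Abcg3, an ATP-binding cassette protein, stood at 30.0 and 56.5 CPM against 0.921 and 3.34 CPM, a log2 fold change of 4.26 (SE 0.99), and passed in edgeR with the heart term (adjusted p = 0.00259). Nkx2-3, a homeobox factor of spleen and gut vessels, stood at 7.11 and 9.93 CPM against 0.335 and 0.557 CPM. Genes known mainly from brain also appeared. Slc1a2, a glutamate transporter, stood at 10.7 and 9.30 CPM against 0.084 and 0.929 CPM, and Gfap, the astrocyte filament, at 20.5 and 24.8 CPM against 2.68 and 1.58 CPM. Plekhb1, Tnip3 and Gpr45 had gaps of similar width. Gimap1os is antisense to another gene, and as the counting is not stated to use strand, its 69.0 and 116 CPM against 5.19 and 8.73 CPM cannot be assigned to it alone.

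Lymphoid priming genes were mixed. Of 20 listed genes 9 were higher and 3 lower without overlap, with a median log2 fold change of 0.31. Gimap6, a GTPase of lymphocyte survival, stood at 290 and 806 CPM in the double mutant and at 66.4 and 87.2 CPM in Jak2V617F. Cd27, a TNF receptor family member on progenitors and lymphocytes, stood at 66.6 and 200 CPM against 22.4 and 22.3 CPM. Both passed in edgeR with the heart term (adjusted p = 0.00136 and 0.0241). Flt3, the receptor kinase of lymphoid-primed MPP, stood at 48.7 and 181 CPM against 25.7 and 22.9 CPM, and Il2rg, the shared chain of interleukin receptors, at 88.7 and 221 CPM against 34.3 and 46.7 CPM. Cd52, a glycoprotein of mature leukocytes, was lower, at 24.1 and 20.1 CPM against 56.0 and 81.7 CPM. The antigen receptor recombinase gene Rag1 stood at 0.095 and 3.82 CPM against 16.5 and 3.99 CPM.

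Cd74 and H2-Aa, which serve MHC class II presentation, were higher in the double mutant. Cd74, the invariant chain, stood at 809 and 1579 CPM in the double mutant and at 109 and 166 CPM in Jak2V617F, a log2 fold change of 3.03 (SE 0.83). H2-Aa, a class II alpha chain, stood at 186 and 361 CPM against 36.0 and 50.7 CPM, a log2 fold change of 2.57 (SE 0.68). Both groups were clear of each other, and both genes passed in edgeR with the heart term (adjusted p = 0.00839 and 0.0017). H2-Ab1, the matching beta chain, stood at 62.5 and 128 CPM against 31.4 and 40.1 CPM and did not pass in edgeR with the heart term (adjusted p = 0.877). The 3 genes belong to a list of 18 markers of macrophages and dendritic cells, which express class II strongly. In that list 4 were higher and 2 lower without overlap, with a median log2 fold change of -0.25. Between the 3 libraries high in heart RNA 13 were higher and 4 lower, with a median of 0.49, and double mutant library 2 gave -0.46. C1qa, a macrophage complement gene, stood at 57.1 and 7.51 CPM against 29.5 and 45.1 CPM. The dendritic cell integrin Itgax was at 1.33 and 0.255 CPM against 0.168 and 0.464 CPM. Both lay above Jak2V617F in double mutant library 1 only. The part of macrophages or dendritic cells in the class II genes was not tested. In control MPP, Cd74 stood at 605 and 137 CPM, so control library 1 lay far above Jak2V617F.

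Interferon response genes were higher in both double mutant libraries. All mice had received pIpC 2 months before. Of 30 listed genes, all tested, 23 were higher without overlap, 1 (Mx1) was lower, and 7 had a gap of at least 1 upward. The median log2 fold change was 1.24, with 0.85 between the 3 libraries high in heart RNA and 1.58 for double mutant library 2. Oasl2, a 2'-5' oligoadenylate synthetase family member, stood at 41.1 and 103 CPM in the double mutant and at 9.30 and 9.57 CPM in Jak2V617F. Its log2 fold change was 2.84 (SE 0.66), and its edgeR adjusted p was 0.629, or 0.0041 with the heart term. Rtp4, a receptor transporter induced by interferon, stood at 80.4 and 97.4 CPM against 12.2 and 20.7 CPM and also passed with the heart term (edgeR adjusted p = 0.0336). Ifi44 stood at 39.0 and 69.3 CPM against 8.71 and 15.1 CPM, and Zbp1, a sensor of left-handed nucleic acid helices, at 11.9 and 15.7 CPM against 3.18 and 1.21 CPM. The summed CPM of the list was 1036 and 1706 in the double mutant, 579 and 601 in Jak2V617F and 885 and 532 in control MPP.

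**Figure D4:**
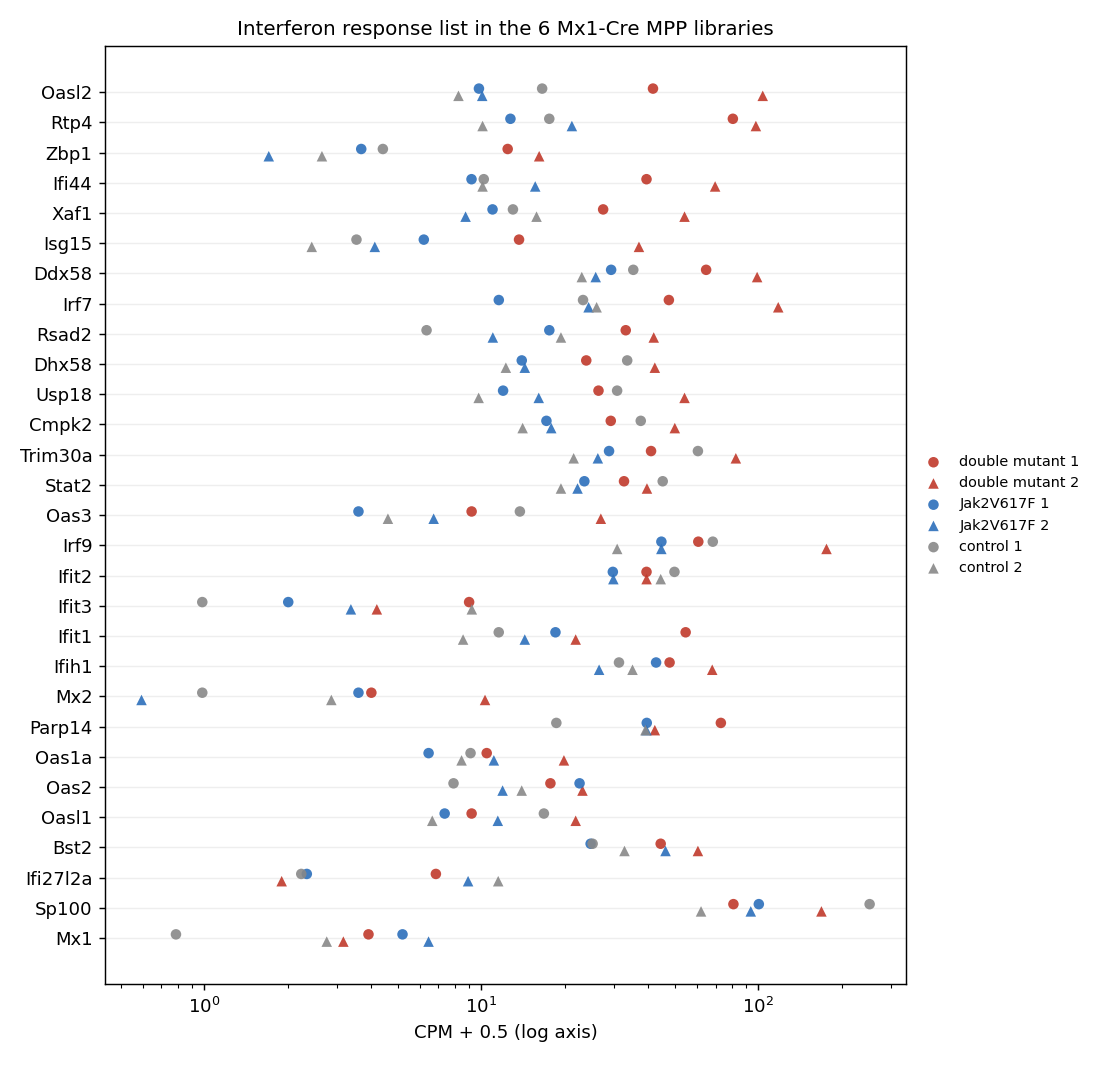
CPM + 0.5 (horizontal log axis) of 29 interferon list genes, ordered by gap from widest upward to widest downward, 1 point per Mx1-Cre MPP library. For Oasl2, at the top, the double mutant libraries at 41.1 and 103 CPM stood apart from Jak2V617F at 9.30 and 9.57 CPM, and Mx1, at the bottom, had the reverse order.

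The promoters of these genes are known to carry paired GAAA repeats bound by interferon regulatory factors. RefSeq windows (GRCm38.p6, from 250 bases before to 50 after the start) were found for 20 of the 30 genes and searched on both strands for GAAA, any 2 bases and GAAA again, with overlapping matches counted. A match stood in 11 of the 20 (55.0%), against 3.87% of 13143 tested genes with a window. A match describes the sequence and is not a measured binding site. The windows of Isg15, a ubiquitin-like modifier, and Ddx58, which encodes the RNA sensor RIG-I, are shown as list members with a gap of 1.14 each and a match, and that of Oasl2 as the gene with the widest gap in the list and no match. Capitals mark the matches, 3 overlapping ones in Isg15 and 1 in Ddx58.
Isg15 (chr4:156200769-156201068, minus strand): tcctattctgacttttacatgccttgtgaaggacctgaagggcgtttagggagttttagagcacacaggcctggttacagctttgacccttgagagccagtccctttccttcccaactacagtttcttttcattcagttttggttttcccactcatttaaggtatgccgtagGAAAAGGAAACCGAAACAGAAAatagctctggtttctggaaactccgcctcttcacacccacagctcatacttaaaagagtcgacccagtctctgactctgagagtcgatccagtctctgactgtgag
Ddx58 (chr4:40239776-40240075, minus strand): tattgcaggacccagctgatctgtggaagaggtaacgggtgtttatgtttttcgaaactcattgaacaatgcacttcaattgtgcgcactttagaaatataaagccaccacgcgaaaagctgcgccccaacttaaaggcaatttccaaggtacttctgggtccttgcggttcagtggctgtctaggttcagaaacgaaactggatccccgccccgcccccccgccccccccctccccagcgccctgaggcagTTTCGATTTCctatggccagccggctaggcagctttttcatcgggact
Oasl2 (chr5:114896684-114896983, plus strand): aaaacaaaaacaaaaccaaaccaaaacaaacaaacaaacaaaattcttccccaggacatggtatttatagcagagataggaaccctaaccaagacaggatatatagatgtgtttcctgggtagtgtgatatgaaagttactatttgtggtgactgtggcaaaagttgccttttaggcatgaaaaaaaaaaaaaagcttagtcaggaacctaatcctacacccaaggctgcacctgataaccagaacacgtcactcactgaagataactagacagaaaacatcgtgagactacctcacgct
Isg15 stood at 13.2 and 36.6 CPM in the double mutant and at 5.70 and 3.62 CPM in Jak2V617F. Ddx58 stood at 64.3 and 98.4 CPM against 28.9 and 25.4 CPM.

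STAT5 targets, a readout of Jak2 signalling, showed small differences. Of 15 genes 7 were higher and 1 was lower without overlap, against 16.9% and 15.4% over all genes tested. None had a gap of at least 1, and the median log2 fold change was 0.30. Between the 3 libraries high in heart RNA 13 were higher and 2 lower, with a median of 0.47. Double mutant library 2 against Jak2V617F gave a median of -0.14, so no direction of the list is read. Without double mutant library 1 the median was -0.49. Pim1, a survival kinase, stood at 273 and 472 CPM in the double mutant and at 112 and 151 CPM in Jak2V617F, a log2 fold change of 1.42 (SE 0.56). The feedback inhibitor Socs2 stood at 31.9 and 31.2 CPM against 30.7 and 30.0 CPM. Id1, an inhibitor of E proteins, was lower at 22.9 and 5.09 CPM against 44.7 and 41.2 CPM. Among 16 JAK, STAT and regulator genes 8 were higher and 1 lower without overlap, with the same shares over all genes tested. Stat4, used by interleukin 12, stood at 14.2 and 44.8 CPM against 9.88 and 8.73 CPM. Of the receptors that signal through Jak2, Epor and Csf3r overlapped between groups. Epor, the erythropoietin receptor, stood at 8.72 and 43.2 CPM against 9.38 and 13.2 CPM. Csf3r, the granulocyte colony-stimulating factor receptor, stood at 15.8 and 66.1 CPM against 48.6 and 61.4 CPM. Csf3r nevertheless passed as lower in edgeR with the heart term (adjusted p = 0.00764).

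Megakaryocyte genes were also mixed. Of 23 genes 8 were higher and 5 lower without overlap, against 16.9% and 15.4% over all genes tested. The median log2 fold change was -0.47. Mmrn1, the platelet protein multimerin 1 that stem cells also express, stood at 110 and 193 CPM in the double mutant and at 32.8 and 31.7 CPM in Jak2V617F. It passed in edgeR with the heart term (adjusted p = 0.0333). Pf4, the platelet chemokine, was lower at 12.1 and 13.1 CPM against 30.1 and 26.6 CPM, and Gp9, of the von Willebrand receptor, was higher at 7.49 and 39.7 CPM against 4.44 and 3.90 CPM.

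Red cell genes were high mainly in double mutant library 2. The summed CPM of 25 erythroid genes was 6679 and 30603 in the double mutant and 7200 and 7026 in Jak2V617F, so library 1 lay below both Jak2V617F libraries. Slc4a1 and the globin genes were higher in both libraries, though none passed in edgeR with or without the heart term. Slc4a1, the anion exchanger band 3, stood at 81.7 and 474 CPM against 14.7 and 11.3 CPM, a log2 fold change of 4.31 (SE 1.23, edgeR adjusted p = 1, or 0.854 with the heart term). The globin genes Hba-a1, at 194 and 917 CPM against 39.5 and 39.7 CPM, and Hbb-bt, at 248 and 899 CPM against 55.3 and 38.6 CPM, have near-identical copies between which reads can be split, as does Hbb-bs, at 353 and 1015 CPM against 89.2 and 72.3 CPM. The factors that drive the lineage overlapped between groups. Gata1 stood at 55.9 and 411 CPM against 109 and 108 CPM. Klf1 stood at 11.4 and 63.4 CPM against 13.4 and 11.8 CPM. Over the list 11 genes were higher and none lower without overlap, 7 had a gap of at least 1, and the median log2 fold change was 1.12 but 0.21 between the 3 libraries high in heart RNA.

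Cell cycle genes put the 2 double mutant libraries on opposite sides of Jak2V617F. The summed CPM of 21 mitosis genes was 1201 and 5401 in the double mutant and 2135 and 2177 in Jak2V617F. For 23 DNA replication genes it was 2355 and 10628 against 2820 and 3170. Control MPP showed the same split, with 5056 and 1477 CPM of mitosis genes in control libraries 1 (low in heart RNA) and 2 (high). Between the 3 libraries high in heart RNA 19 of 21 mitosis genes and 18 of 23 replication genes were lower in the double mutant, with medians of -0.97 and -0.28, while the median over all genes was 0.01. Against Jak2V617F, double mutant library 2 gave 1.38 and 1.71. No direction of the cell cycle lists can therefore be given. Ccne1, a cyclin that starts replication, was higher in both, at 31.7 and 82.5 CPM against 13.2 and 9.01 CPM.

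Inflammatory genes were mixed, with 4 higher and 3 lower without overlap of 18 tested, against 16.9% and 15.4% over all genes tested. Tnf, tumour necrosis factor, had no count in either double mutant library and stood at 3.52 and 3.16 CPM in Jak2V617F, at least 20.5-fold lower in the double mutant by a floor of 3 counts over both libraries. The immediate early gene Egr2 likewise had no count against 3.77 and 3.44 CPM, at least 22.1-fold lower by the same floor. Egr2 also varied widely within 1 genotype, at 0.048 and 2.16 CPM in control MPP and 12.0 and 0.139 CPM in control HSC. Il1rn, the interleukin 1 receptor antagonist, stood at 0.758 and 0.255 CPM against 5.36 and 7.34 CPM. The chemokine Ccl4 was higher, at 17.8 and 41.5 CPM against 3.10 and 4.27 CPM, and Il1b stood at 3.70 and 2.04 CPM against 0.586 and 0.372 CPM. Other immediate early genes, which respond to handling, were mixed, with 4 higher and 4 lower of 20 tested. Egr1 stood at 36.8 and 43.3 CPM against 17.3 and 25.1 CPM.

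Among transcription factors of myeloid and erythroid fate, 8 of 30 were higher and 5 lower without overlap. The shares over all genes tested were 16.9% and 15.4%, and no count in this paragraph is read as a result about its list. Runx2, a RUNX factor best known from bone, stood at 30.8 and 59.1 CPM against 9.30 and 11.2 CPM. Lmo2, a bridging protein of stem cell complexes, stood at 145 and 263 CPM against 79.1 and 71.0 CPM. Of the fetal stem cell list 4 of 10 were lower and 1 was higher without overlap, the chromatin protein gene Hmga2 at 13.9 and 14.8 CPM against 5.36 and 4.74 CPM. The RNA-binding protein gene Igf2bp1 was lower, at 6.82 and 1.78 CPM against 10.8 and 11.1 CPM, with the lowest value in the library low in heart RNA. Imprinted genes were mixed, 3 higher and 4 lower of 15, with Sgce at 40.3 and 48.1 CPM against 17.4 and 19.5 CPM and Phlda2 at 1.71 and 2.04 CPM against 0.586 and 1.02 CPM. Of the remaining lists, ribosome biogenesis had 1 gene higher and none lower of 20, glycolysis and hypoxia 1 higher and 4 lower of 19, and the heart and stroma lists none in either direction.

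The Vav-Cre MPP, which lost Jarid2 without Jak2V617F, give genes chosen in other animals. There edgeR called 81 genes higher (0.512% of 15818) and 69 lower (0.436%) in Jarid2-KO. Leaving out 1 library moved that total of 150 to 39, 55 and 34 without control replicate 1, 2 and 3. The total was 155, 114 and 1512 without Jarid2-KO replicate 1, 2 and 3. In the double mutant against Jak2V617F, 19 of the 80 tested Vav-higher genes were higher and 13 lower without overlap, with a median log2 fold change of -0.12. Of the 68 tested Vav-lower genes, 17 were higher and 10 lower, with a median of 0.23. Over all genes tested, 16.9% were higher and 15.4% lower without overlap, and no direction is read from either list. For the Vav-higher genes the 2 double mutant libraries differed. Between the 3 libraries high in heart RNA 60 of the 80 Vav-higher genes were higher and 20 lower, with a median of 0.25 against 0.01 over all genes tested. Double mutant library 2 gave a median of -0.47. In the comparison of 3 libraries 9930 of all 19616 genes were higher and 9535 lower, and of the heart list 22 were higher and 1 lower. The summed CPM of the Vav-higher genes was 6661 and 2690 in the double mutant, 5658 and 5469 in Jak2V617F and 1511 and 6474 in control MPP. It was thus lowest in the libraries low in heart RNA, whose part in this list was not tested. With the heart term the median of the Vav-higher genes was 0.45. Of the Vav-lower genes 36 were higher and 32 lower between the 3 libraries, with a median of 0.05. Mycn (Vav log2 fold change 1.55, SE 0.22, edgeR adjusted p = 0.00365) and Runx1t1 (1.87, SE 0.24, edgeR adjusted p = 0.00214) were higher in both cohorts. Fbp1, a gluconeogenic phosphatase, was also higher in both, at 1.83 (SE 0.28) in the Vav cohort and 2.69 (SE 0.80) here, with 61.0 and 122 CPM against 15.2 and 11.4 CPM. Gdpd3 was lower in both, at 0.095 and 0.127 CPM here against 4.02 and 2.97 CPM.

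Other genes had opposite signs in the cohorts. Oasl2 fell in Vav-Cre Jarid2-KO MPP by 1.52 on the log2 scale (SE 0.20, edgeR adjusted p = 0.00289), Cd74 by 1.01 (SE 0.22, edgeR adjusted p = 0.0447) and H2-Aa by 1.03 (SE 0.21, edgeR adjusted p = 0.0376), and all 3 were higher in the double mutant. Inhba, a subunit of activin, rose by 2.06 (SE 0.42, edgeR adjusted p = 0.0335) in the Vav cohort and was lower here, at 2.08 and 2.16 CPM against 12.8 and 26.5 CPM. Mirg, a noncoding RNA of an imprinted cluster, rose in the Vav cohort and was lower here, at 0 and 0.127 CPM against 6.37 and 3.07 CPM. S100a8 did not pass in the Vav cohort, where its log2 fold change was 1.28 (SE 0.54, edgeR adjusted p = 0.219). The share of granulocyte-monocyte counts was 0.659% to 2.52% in Vav-Cre Jarid2-KO MPP and 0.530% to 0.691% in its control, and its part in these signs was not tested. Ifi211 was higher in both cohorts, but it belongs to a family of near-identical copies. The difference between cohorts was not tested, since they differ in Cre, age, exon list, Jak2V617F and heart RNA.

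**Figure D5:**
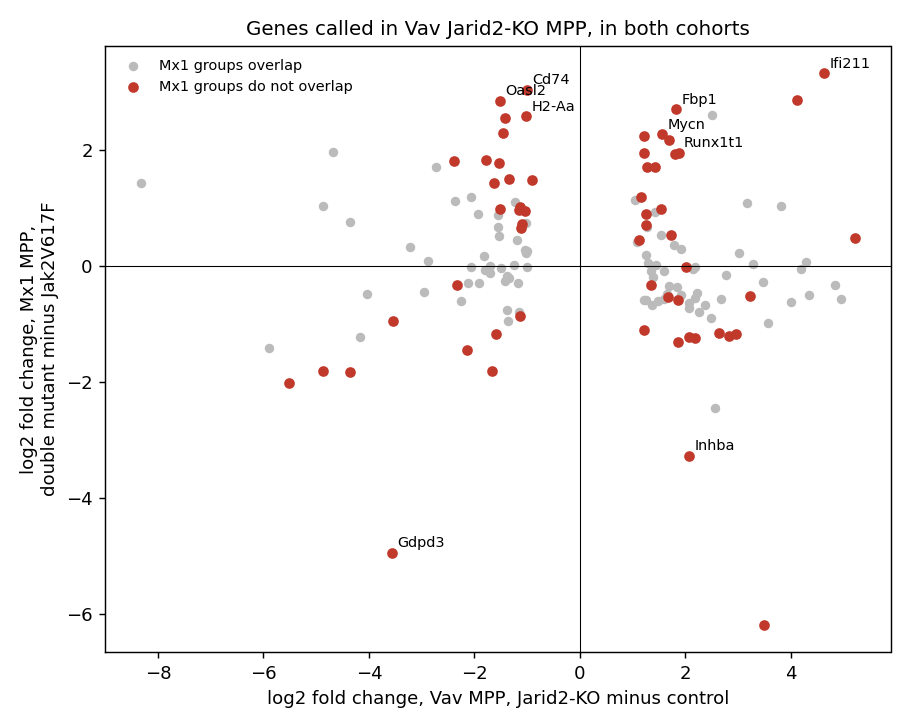
Log2 fold change of the genes called in Vav-Cre Jarid2-KO MPP (horizontal axis) against their log2 fold change between double mutant and Jak2V617F MPP (vertical axis), 1 point per gene, with genes whose Mx1-Cre groups did not overlap in red. Mycn and Runx1t1 lie in the upper right, Oasl2, Cd74 and H2-Aa in the upper left and Inhba in the lower right.

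The effect of the added Jarid2 deletion in MPP was compared with that in HSC from the same cohort by an interaction term. It called 0 of 19616 genes (0.0%) in edgeR, with 479 at an unadjusted p under 0.05, and DESeq2 called 21. Hlf stood at 147 and 427 CPM in double mutant HSC and at 14.9 and 25.05 CPM in Jak2V617F HSC, and the difference in MPP minus that in HSC was -0.19 (SE 0.84). S100a8 gave 0.26 (SE 0.97) and Oasl2 0.05 (SE 0.87). These 3 estimates lay within 1 SE of 0 but do not stand for their lists. Medians of this difference were -1.36 for the HSC list, 0.81 for the granulocyte-monocyte list and 0.32 for the interferon list. The median over all genes tested was -0.01, and the list medians were not tested. Globin and platelet genes were further from 0 than these 3 genes. Hba-a1 gave 5.44 (SE 1.18), with 21.9 and 7.64 CPM in double mutant HSC and 59.1 and 24.9 CPM in Jak2V617F HSC. Pf4 gave -3.12 (SE 0.88), Mmrn1 -2.23 (SE 0.88) and Mycn -2.56 (SE 1.12), the last with 54.7 and 196 CPM in double mutant HSC against 2.35 and 4.87 CPM in Jak2V617F HSC. None of these passed the edgeR test (adjusted p = 1 for each), and the HSC libraries were split by heart RNA too, at 8.00% and 0.546% in the double mutant and 0.848% and 6.35% in Jak2V617F.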

How the data were processed

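RNA-seq tables of 24 libraries were read, 12 of the Mx1-Cre and 12 of the Vav-Cre cohort, with 41388 genes listed and 40254 matched to a symbol. Per the submitters' processing notes, the build was mm10, and the tools included HTSeq 0.8.0, Partek 6.6, featureCounts 1.4.5, STAR 2.0.4 and Subread; their order is not given in the sources used here. Per the labels' protocols, libraries came from a SMARTer Ultra Low kit. The deposited counts are raw reads per gene and were tested as they stand. The deposited CPM, which equal the counts scaled to the column total within 5.1e-11, and the deposited RPKM describe levels.

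The test was the quasi-likelihood F test of edgeR 4.0.16 (R 4.3.3, TMM scaling, filterByExpr with a minimum count of 10 and total of 15, Benjamini-Hochberg threshold 0.05). It was fitted over the 12 Mx1-Cre libraries, with 6 residual degrees of freedom, and separately over the 12 Vav-Cre libraries. SE is the log2 fold change divided by the square root of F. Alternatives used DESeq2 1.42.0 and limma 3.58.1 (voom), other filters and scalings, a heart RNA term, a replicate block and leaving out libraries. Scripts were tested on simulated data. Python 3.11.15, pandas 2.3.3, numpy 2.4.6 and matplotlib 3.10.9 were used.

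The libraries compared and the 31 gene lists were chosen with earlier results of these data known. Named genes are Jarid2, Jak2, Mycn and Runx1t1, the 12 widest gaps in each direction with at least 5 CPM in the higher group (predicted, pseudo-, small RNA, ribosomal protein and heart genes left out), up to 4 members per list with a gap of at least 0.5, and 8 Vav-Cre calls. Chosen after their values were seen were Ttn, Kit, Slamf1, Tek, Vwf, Rarb, Meis1, Angpt1, Myc, Hoxb9, Ezh1, Ezh2, Mpo, Elane, Prtn3, Ctsg, Ms4a3, Fcer1a, Cma1, Mcpt4, Cd48, Max, Mnt, Rag1, C1qa, Itgax, Mx1, Isg15, Ddx58, Socs2, Epor, Csf3r, Gata1 and Klf1. Libraries are pools of mice, and as nothing states that replicates came from separate pools, p-values measure only the spread between these libraries, which may be technical. Some members of the lists are counted but not reported by name here.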

Additional observations from a re-analysis of the deposited data

Results flagged for a closer look

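Loss of Jarid2 went with opposite differences in the Vav-Cre cohort, without Jak2V617F, and in the Mx1-Cre cohort, with it, for 5 of the named genes. They were picked by a rule: called in the Vav-Cre cohort, no overlap between the groups in either cohort, and opposite signs. The separation of the libraries is thus a condition of the choice and supports nothing. The difference between cohorts was not tested, and the cohorts differ in Cre line, age, exon list and heart RNA. Cd74, the MHC class II invariant chain, stood at 217 to 240 CPM in Vav-Cre Jarid2-KO MPP and at 391.7 to 564 CPM in its control, a log2 fold change of -1.01, against 3.03 for the double mutant. H2-Aa, a class II alpha chain, stood at 37.0 to 48.4 CPM against 73.2 to 103 CPM, a log2 fold change of -1.03, against 2.57. The interferon response gene Oasl2 stood at 50.6 to 81.9 CPM against 185 to 217 CPM, a log2 fold change of -1.52, against 2.84. Inhba, a subunit of activin, stood at 5.92 to 23.6 CPM against 3.35 to 4.32 CPM, a log2 fold change of 2.06, against -3.27. The imprinted noncoding RNA Mirg stood at 1.05 to 1.84 CPM against 0.0441 to 0.227 CPM, a log2 fold change of 3.5, against -6.18 for the double mutant, where its level was at or near 0.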

How the results depend on the processing

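For the double mutant against Jak2V617F, the count of genes past the test was 0, but 85 without the filter on low counts, 80 with DESeq2, 12 with limma-voom and 116 with the heart term. It was 0 with each of the 4 libraries compared left out (the other 8 of the fit were not left out in turn), with the stricter filter, with DESeq2 size factors, without heart genes, and in fits of 6 or 4 libraries. With the replicate block it was 0 as well. The labels do not tie the replicate numbers to a shared animal, batch or day, and residuals of same-numbered libraries correlated by 0.0584 between double mutant and Jak2V617F MPP and by -0.543 to 0.523 over the 15 pairs of groups. Mixed signs do not show that no libraries were paired. For MPP minus HSC the count was 35 without the filter, 21 with DESeq2, 3 with the heart term and 0 to 2 with 1 library left out, the 2 without double mutant MPP replicate 1. For the Vav-Cre MPP it was 1306 without the filter, 1109 with DESeq2, 106 with the replicate block and 34 to 1512 with 1 library left out; these Vav-Cre alternatives were chosen after seeing the data. Genes with a gap of at least 1 numbered 1068, and 453 with 2 CPM added. The Jarid2 log2 fold change turned to -0.16 with the heart term, and with 1 library left out it ran from -0.31 (without double mutant MPP replicate 2) to 0.49 (without double mutant MPP replicate 1). It was -0.24 within the libraries high in heart RNA. Of the 91 named genes only Jarid2 reversed in the alternatives run. Nearly all of them were named for a gap between the groups, which leaves little room for a reversal, so this count supports nothing. Of the list medians, 27 of 124 values with 1 library left out and 14 of 340 others moved by more than a yardstick. This was the standard deviation of 2 medians, those of double mutant libraries 1 and 2, each against Jak2V617F. It leaves out the spread between Jak2V617F libraries and is wide where the double mutant libraries differ, so these counts support nothing. The sign was opposite under at least 1 alternative for 20 of 31 lists. The medians of the HSC (0.79 to 1.11), granulocyte-monocyte (-2.50 to -1.96) and interferon (0.80 to 1.504) lists kept their sign under each of 15. So did the Hox median (1.18 to 3.04), but Hox genes that passed the filter only through the higher group had to differ, so its sign supports nothing. The median of the heart list has no value where heart genes were left out. Where a count moved, the cause was not tested.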
